A study of Mus musculus with 8 samples.

Results

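The data described here are the array signals of the enzymes that carry glucose through glycolysis to lactate, in primary mouse aortic smooth muscle cells transfected with a moR-21 mimetic or with a scrambled control. The members were Hk2, Pfkl, Pfkm, Aldoa, Tpi1, Gapdh, Pgam1, Eno1, Pkm2 and Ldha, 10 genes named as steps of glycolysis out of 18138 gene symbols on the array. They were chosen with the results of the moR-21 comparison already known, so that their differences between treatments are given as a description, with no test. Every probe listed under one of these symbols was read on its own, which gave 14 probes in 9 of the 10 genes, out of 25697 probes in all. Hk2 was not analysed here.

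A microRNA-offset RNA, or moR, is a short RNA cut from the precursor of a microRNA next to the mature microRNA, and moR-21 comes from the miR-21 precursor. The cells had been grown out of pieces of several mouse aortas and kept in low-glucose medium with charcoal-treated serum before use. Both groups were unmodified primary cells that received a synthetic small RNA at 5 nM through the same lipid transfection reagent, and RNA was collected 48 h later. Each treatment had 3 samples. A pair of arrays, A and B, was run for control sample 1 and another pair for moR-21 sample 3, and the 6 samples therefore came on 8 arrays. The labels do not say whether the samples of a treatment were separate cultures, so that the spread between them may be technical. The methods name C57/Bl6 mice for the study but do not tie a strain, sex or age to the mice whose aortas were cultured.

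Glycolysis splits glucose into pyruvate in the cytosol and yields ATP without oxygen. Phosphofructokinase commits the sugar to the pathway, aldolase and triosephosphate isomerase make and interconvert the 3-carbon sugars, and the lower enzymes turn these into pyruvate with the release of ATP and NADH. Lactate dehydrogenase reduces pyruvate to lactate and returns NAD+ to the pathway. Proliferating cells, smooth muscle among them, are known for making much of their ATP this way, and many of these genes are known targets of the transcription factors HIF-1 and Myc.

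The stretch of the miR-21 precursor that precedes the mature miR-21 is shown because it is the part from which moR-21 is cut. It lies at chr11:86584142-86584158 of GRCm38.p6, on the minus strand, and the capitals mark the GUACC core. The stretch starts where the RefSeq hairpin starts. The seed windows that the study describes place the core 1 base further from the 5′ end of moR-21, so that its first base lies just before this stretch and is not shown, and the 3′ end of the mimetic was not taken from any source here.
Mir21a hairpin before miR-21a-5p: uGUACCaccuugucgga

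The 7 member probes that passed the cutoffs for a call are shown by the first 30 of their 50 bases, since each level below is the signal at 1 such short stretch and not at the whole transcript. The sequences were decoded from the probe identifiers in the study's supplementary table and carry no capitals because no part is singled out.
Pfkl ILMN_1236539: ccagctggctgcctcaccacacggctgaaa
Aldoa ILMN_2599130: tgggaagaaggagaacctgaaggcagccca
Gapdh ILMN_1377924: aaggacactgagcaagagaggccctatccc
Pgam1 ILMN_2856157: ctagtcagaataacgcctctgggggtgcag
Eno1 ILMN_2958159: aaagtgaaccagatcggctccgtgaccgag
Pkm2 ILMN_2756041: cagaagggcggcagcatctctgggctttgc
Ldha ILMN_1257965: ccaactgcaggcttcgattacccctgtgag

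Most of the measured enzymes from aldolase to lactate dehydrogenase, together with the liver-type phosphofructokinase, had higher signals after the moR-21 mimetic. A probe was called when its fold change was over 1.3 and its adjusted p from limma was under 0.002, over the 11651 probes detected on at least 1 array. All 14 member probes were among these, and 13 of them were detected on all 8 arrays. Of the 14 probes, 7 were called higher and 0 lower, where 3.12% of all tested probes were called higher and 3.85% lower. With each gene read at its brightest probe, 3.41% of tested genes were called higher and 4.38% lower. All 14 probes had a positive difference. The 3 moR-21 samples lay above all 3 control samples at 12 of the 14 probes, against 23.7% of all tested probes. The median log2 fold change was 0.35 over the 14 member probes and 0.00 over all tested probes. Because this comparison was known when the genes were chosen, nothing is read from these counts.

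The rises were not spread evenly. All 6 genes with a single probe were called (Aldoa, Gapdh, Pgam1, Eno1, Pkm2 and Ldha), while the 8 probes of the 3 genes with several probes (Pfkl, Pfkm and Tpi1) held 1 call. The 7 called probes had log2 fold changes from 0.41 to 1.17, with a median of 0.59, and the 7 others from 0.02 to 0.29. All 7 others were under the fold cutoff, the nearest to it on either side being Gapdh at 1.33-fold and the brightest Tpi1 probe at 1.22-fold.

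**Figure D1:**
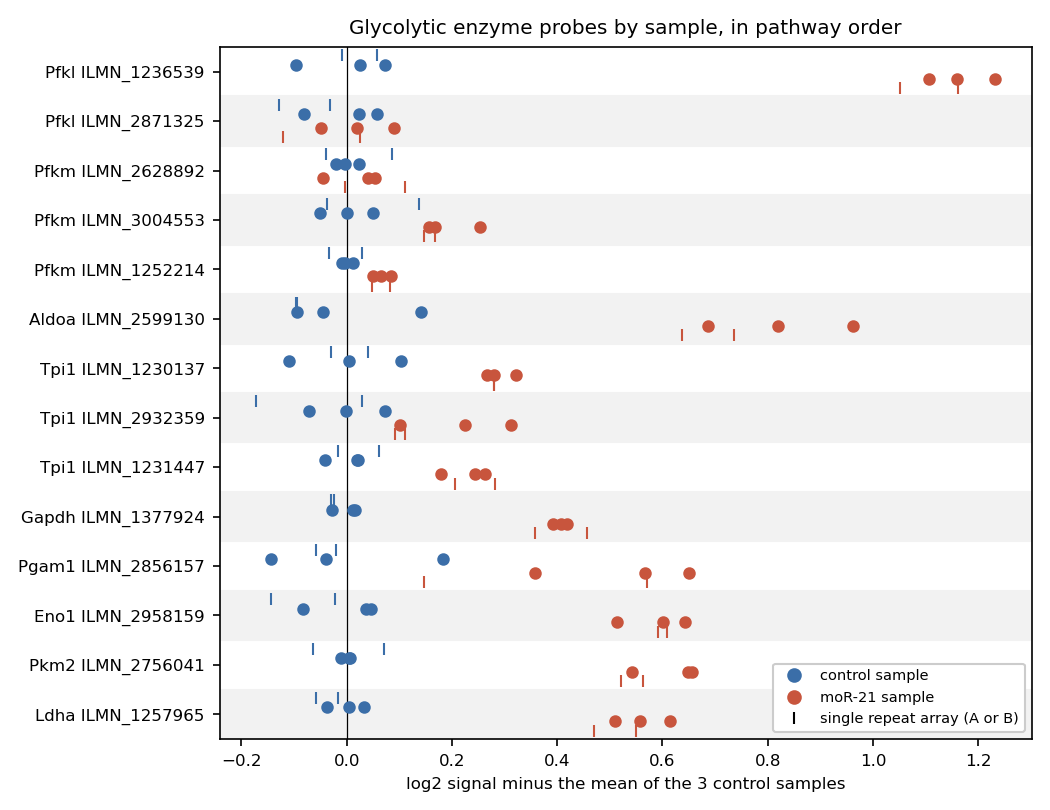
Signals of the 14 glycolytic enzyme probes, with the log2 signal minus the mean of the 3 control samples on the x axis and the probes from top to bottom in pathway order. Dots are samples (blue, control; red, moR-21) and ticks are the single A and B arrays of control sample 1 and moR-21 sample 3. The red dots lie to the right of all blue dots at 12 probes and mix with them at the dimmer Pfkl probe and the brightest Pfkm probe.

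Phosphofructokinase phosphorylates fructose 6-phosphate, the committed step of glycolysis, and exists as liver (Pfkl), muscle (Pfkm) and platelet (Pfkp) isoforms. The bright Pfkl probe (ILMN_1236539) gave log2 signals of 10.11, 10.15 and 9.98 in the control samples and 11.31, 11.24 and 11.19 in the moR-21 samples. The groups lay far apart, with a gap of 1.03 between the highest control and the lowest moR-21 sample. The log2 fold change was 1.17 ± 0.055 (SE, n = 3 samples per treatment), or 2.24-fold, the fifth largest rise among 8727 tested genes. Before normalization the 4 control arrays had intensities of 988.7 to 1229.5, and the 4 moR-21 arrays 2274 to 2550.

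The dimmer Pfkl probe (ILMN_2871325) read 6.79, 6.89 and 6.93 in the control samples and 6.89, 6.96 and 6.82 in the moR-21 samples, so that the groups overlapped. It was detected on 6 of the 8 arrays, with intensities between 106.7 and 122.3, near the array medians of 102.5 to 109.2. Its log2 fold change was 0.02, with a 95% interval from −0.09 to 0.14, and its sign turned when control sample 1 or moR-21 sample 2 was left out. The rise of Pfkl thus rests on 1 probe.

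Pfkm is the isoform that predominates in skeletal muscle. Its brightest probe (ILMN_2628892) read 10.23, 10.18 and 10.20 in the control samples and 10.16, 10.25 and 10.26 in the moR-21 samples, which overlapped. The log2 fold change was 0.02, with a 95% interval from −0.08 to 0.12, and it was −0.01 when the arrays were scaled by their medians or by cyclic loess.

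The second Pfkm probe (ILMN_3004553) read 8.61, 8.56 and 8.51 in the control samples and 8.73, 8.81 and 8.72 in the moR-21 samples, and the groups did not overlap, but its log2 fold change of 0.19 ± 0.049 (SE) stayed under the cutoff. The third (ILMN_1252214), at 7.19, 7.20 and 7.18 against 7.27, 7.24 and 7.25, differed by 0.07, also without overlap. The 3 Pfkm probes therefore ranged from 0.02 to 0.19, all with intervals that ended below the 1.3-fold cutoff of 0.38 on the log2 scale. The difference between the Pfkl and Pfkm probes was not tested.

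Aldolase A (Aldoa) cleaves fructose 1,6-bisphosphate into a pair of triose phosphates. Its probe read 10.64, 10.69 and 10.87 in the control samples and 11.55, 11.69 and 11.42 in the moR-21 samples. All moR-21 samples were higher, by at least 0.55. The log2 fold change was 0.82 ± 0.072 (SE), or 1.77-fold, which ranked 22 among the tested genes and was the second largest rise of the pathway.

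Triosephosphate isomerase (Tpi1) interconverts these triose phosphates, and its 3 probes shared a small difference that was not called. The brightest (ILMN_1230137) read 12.26, 12.35 and 12.14 in the control samples and 12.57, 12.52 and 12.53 in the moR-21 samples. The groups did not overlap, and the log2 fold change was 0.29 ± 0.055 (SE), with a 95% interval from 0.17 to 0.41. Of the 7 probes that were not called, this was the 1 whose interval reached the 1.3-fold cutoff.

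The second Tpi1 probe (ILMN_2932359) read 10.46, 10.53 and 10.61 against 10.76, 10.84 and 10.63, with the lowest moR-21 sample only 0.03 above the highest control sample. The third (ILMN_1231447) read 7.43, 7.36 and 7.42 against 7.58, 7.67 and 7.65, with every moR-21 sample higher. Their log2 fold changes were 0.21 and 0.23. After normexp background correction, which takes an estimate of the background off each signal, the difference of the third was 0.42, still without a call.

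Glyceraldehyde 3-phosphate dehydrogenase (Gapdh) oxidizes the triose phosphate and yields NADH, and its transcript is widely used as a reference in RNA measurements. In the study's own assays Gapdh was one of the internal references, but the target transcripts measured after the mimetics were set against B2M. Gapdh protein was a loading control for blots of cells over-expressing moR-21. The Gapdh probe read 11.93, 11.98 and 11.97 in the control samples and 12.35, 12.38 and 12.37 in the moR-21 samples. The spread within each treatment was small, with SDs of 0.02 and 0.01, and the groups did not overlap. The log2 fold change was 0.41 ± 0.044 (SE), or 1.33-fold, the smallest among the called probes. With normexp background correction it was again 0.41, but the call was lost. The mouse genome holds many Gapdh pseudogenes, and whether their transcripts add to this signal was not tested.

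Phosphoglycerate mutase 1 (Pgam1) moves the phosphate of 3-phosphoglycerate to the neighbouring carbon. Its probe read 8.78, 9.00 and 8.68 in the control samples and 9.47, 9.39 and 9.18 in the moR-21 samples. All moR-21 samples were higher, by at least 0.18, but the SDs of 0.17 and 0.15 were the largest among the member probes for each treatment. The log2 fold change was 0.53 ± 0.082 (SE), or 1.44-fold.

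The repeat arrays disagreed at Pgam1. Array A of moR-21 sample 3 read 9.39 and array B read 8.97, under the 9.00 of control sample 2. Before normalization array B had an intensity of 475.4, inside the range of 400.6 to 500.2 on the 4 control arrays, where the other moR-21 arrays had 635.4 to 726.2. With array B alone standing for each repeated sample the log2 fold change was 0.45 and the call was lost. It was also lost with normexp background correction, at 0.62, and with no filter on detection, at 0.53.

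Enolase 1 (Eno1) dehydrates 2-phosphoglycerate to phosphoenolpyruvate. Its probe read 10.26, 10.38 and 10.39 in the control samples and 10.85, 10.98 and 10.94 in the moR-21 samples. The groups were 0.47 apart at their nearest samples, and the log2 fold change was 0.59 ± 0.053 (SE).

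Pyruvate kinase (Pkm2, now named Pkm) makes pyruvate and ATP. The gene gives rise to the M1 and M2 isoforms by alternative splicing, and the symbol on the array does not say which of them the probe reads. It read 11.19, 11.20 and 11.18 in the control samples and 11.85, 11.84 and 11.73 in the moR-21 samples. The control samples were almost level (SD 0.01) and every moR-21 sample was higher, with a log2 fold change of 0.62 ± 0.048 (SE), or 1.53-fold.

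Lactate dehydrogenase A (Ldha) makes lactate from pyruvate. Its probe read 11.48, 11.52 and 11.55 in the control samples and 12.13, 12.07 and 12.03 in the moR-21 samples, again without overlap. The log2 fold change was 0.56 ± 0.047 (SE), or 1.48-fold.

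From Pgam1 to Ldha the 4 called differences lay between 0.53 and 0.62, a range close to their standard errors of 0.047 to 0.082, and their order was not tested. Among the 8727 tested genes Pkm2 ranked 58 by its rise, Eno1 70, Ldha 81, Pgam1 110 and Gapdh 241. Tpi1 ranked 572 and Pfkm 4038.

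**Figure D2:**
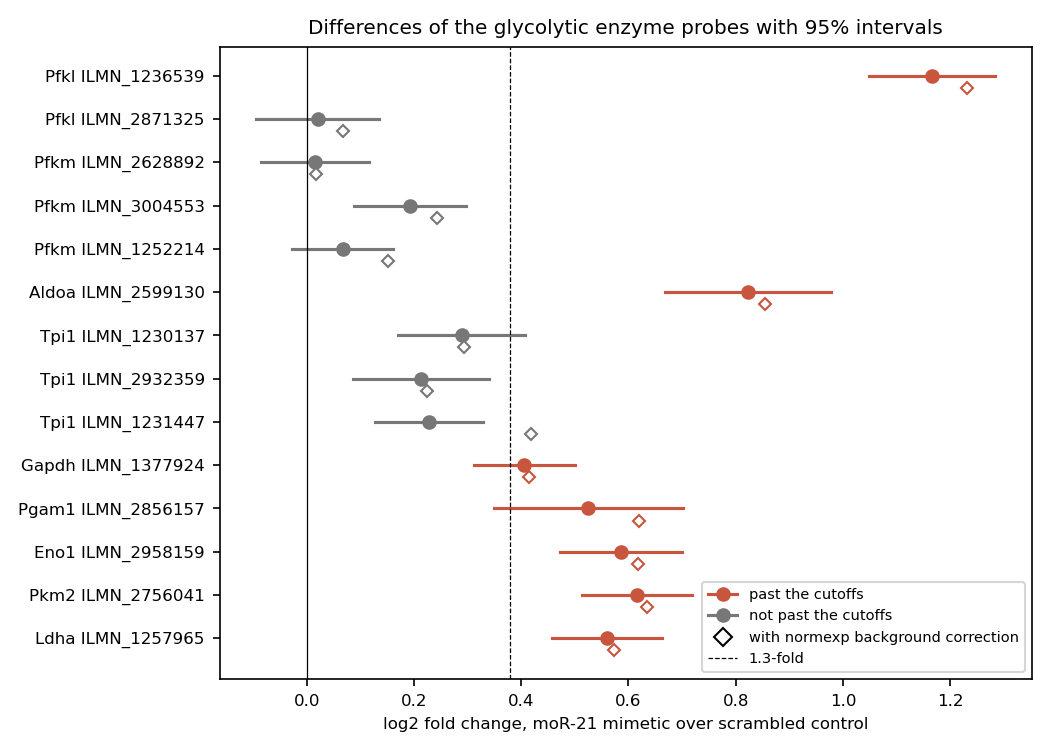
Log2 fold change of each glycolytic enzyme probe, moR-21 mimetic over scrambled control, on the x axis, with the probes in pathway order. Circles are fitted differences with 95% intervals from limma (red, past the cutoffs; grey, not), diamonds are the values with normexp background correction, coloured by the call without it, and the dashed line is 1.3-fold. Pfkl (1.17) and Aldoa (0.82) stand to the right, while the other Pfkl probe and the Pfkm probes lie between 0.02 and 0.19.

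The repeat arrays give a measure of the technical error of each probe. Over the 14 probes the arrays of one sample differed by a median of 0.08 on the log2 scale. The largest difference was the 0.42 of Pgam1, and without Pgam1 it was 0.20. At the level of single arrays, the treatments overlapped at Pgam1, the dimmer Pfkl probe and the brightest Pfkm probe. The repeats add arrays and not samples. The share of all tested probes whose arrays lay apart was not computed, so nothing is read from the other probes here. For the second Pfkm probe and the second Tpi1 probe the arrays of control sample 1 differed by 0.17 and 0.20, about as much as the treatments did (0.19 and 0.21). The same held for the third Pfkm probe, at 0.06 against 0.07. Repeat arrays differed by more than the treatments at the dimmer Pfkl probe (0.15 in moR-21 sample 3, against 0.02). They also did so at the brightest Pfkm probe (0.13 in control sample 1, against 0.02).

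**Figure D3:**
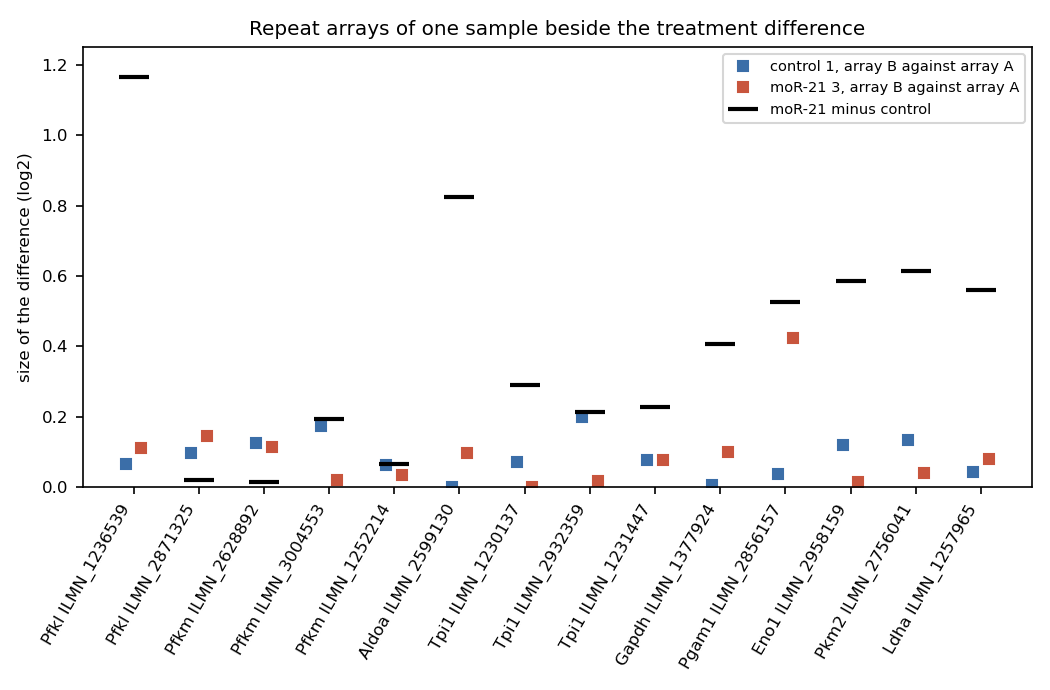
Size of the log2 difference between arrays A and B of control sample 1 (blue squares) and of moR-21 sample 3 (red squares), beside the log2 difference between treatments (black bars), for the 14 probes on the x axis in pathway order. The treatment difference exceeds both squares at every called probe, most narrowly at Pgam1 (0.53 against 0.42).

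Glucose metabolism around the pathway was followed in 7 further lists with 100 genes in all, of which 63 were tested, each at its brightest probe. Of these 4 were called higher and 4 lower, beside the 3.41% and 4.38% of all tested genes given above, and the median log2 fold change was 0.04, beside 0.01 over all tested genes. The difference between these genes and the enzymes of the pathway was not tested, since the enzymes had been chosen with this comparison known. Without moR-21 sample 2 the count called lower was 2, as Pgm2 and Idh3a lost their calls. At an unadjusted p under 0.05, 22 were higher and 9 lower, where 23.4% of all tested genes were higher and 21.1% lower at that threshold.

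Among transporters, Slc2a1, the glucose carrier GLUT1 of many dividing cells, was the 1 called higher of 5 tested. It read 9.28, 9.31 and 9.21 in the control samples and 9.72, 9.69 and 9.74 in the moR-21 samples, a log2 fold change of 0.45 ± 0.047 (SE). The groups did not overlap. Among the others Slc2a6 had 0.19 and Bsg, the chaperone of the lactate carriers, −0.04. The lactate carriers Slc16a1 and Slc16a3 were not detected on any array.

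None of the 10 tested genes listed as other isoforms and steps of glycolysis was called by limma. The list includes Pgam5, at 0.07, which is not a step of glycolysis. At an unadjusted p under 0.05 from limma 3 were higher and 2 lower, the threshold that 23.4% and 21.1% of all genes passed. The platelet phosphofructokinase Pfkp had the highest value, 0.25 ± 0.050 (SE), and its moR-21 samples lay above its control samples. Muscle phosphoglycerate mutase Pgam2 had the lowest, −0.16, at a dim probe with means of 6.91 in control and 6.75 in moR-21 samples. Pgam2 was called lower in 1 of the 17 alternative settings that included its probe, normexp background correction, at −0.57. Whether this larger value reflects the dim signal was not tested. Pgk1, the ATP-forming step between Gapdh and Pgam1, had a log2 fold change of 0.17 at a dim probe, with means of 6.72 in control and 6.89 in moR-21 samples. The hexokinase Hk1 had 0.15.

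The enzymes that set the level of fructose 2,6-bisphosphate, the activator of phosphofructokinase, held 0 calls among 3 tested by limma, with 1 at an unadjusted p under 0.05. They ranged from −0.00 for Pfkfb4 to 0.23 for Pfkfb2. Neither of the 2 tested genes of gluconeogenesis, Pcx at 0.13 and G6pc3 at 0.18, was called by limma, and both had an unadjusted p under 0.05.

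In the list for the entry of pyruvate into mitochondria 1 of 9 tested genes was called higher and 1 lower. Both were pyruvate dehydrogenase kinases, which inhibit pyruvate dehydrogenase. Pdk1 rose from 7.68, 7.74 and 7.70 to 8.23, 8.36 and 8.29, by 0.59 ± 0.049 (SE) on the log2 scale. Pdk4 went from 8.06, 7.89 and 7.96 to 7.50, 7.51 and 7.55, a log2 fold change of −0.45 ± 0.052 (SE). In each case the treatments were fully apart, in opposite directions. Pdk3, which was not called, had 0.27 and Pdha1, a subunit of the dehydrogenase itself, −0.05.

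Of 16 tested genes on the branches off glycolysis, 1 was called higher and 2 lower. Gpd2, the mitochondrial glycerol 3-phosphate dehydrogenase that passes cytosolic electrons to the respiratory chain, had a log2 fold change of 0.51. Rpia, of the pentose phosphate pathway, had −0.56. Pgm2, a phosphoglucomutase, had −0.38 with an adjusted p of 0.00198 from limma, at the edge of the cutoff, and was called in 6 of 18 alternative settings. Psat1, of serine synthesis, had 0.26 and Gfpt2, of hexosamine synthesis, −0.27, neither called.

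The citric acid cycle held 1 called higher and 1 called lower among 18 tested genes, with a median of 0.01. Mdh2, malate dehydrogenase, had 0.44 and Idh3a, a subunit of isocitrate dehydrogenase, −0.39, which was called in 15 of the 18 alternative settings. Fumarase (Fh1), at 0.37, was just under the fold cutoff and was called in 5 of them. Suclg1 had −0.21.

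**Figure D4:**
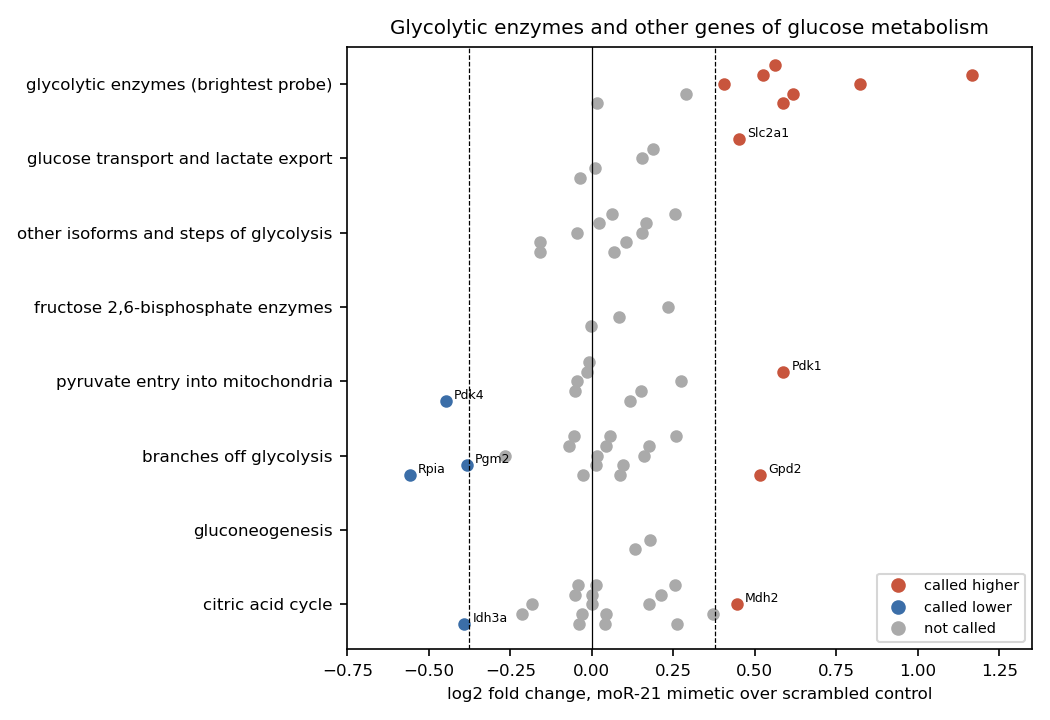
Log2 fold change, moR-21 mimetic over scrambled control, on the x axis for 9 glycolytic enzymes (top row) and 63 tested genes of 7 other lists of glucose metabolism, each gene at its brightest probe. Points are genes (red, called higher; blue, called lower; grey, not called), scattered vertically within a row for legibility, and dashed lines mark 1.3-fold either way. The top row was chosen with this comparison known and holds 7 calls, while the other rows hold 4 higher and 4 lower.

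Across samples the 9 enzymes were also described by 1 average, the mean of their brightest probes after each was centred on its mean. It was −0.30, −0.24 and −0.29 in the control samples and 0.30, 0.31 and 0.23 in the moR-21 samples, so that moR-21 sample 3 was the lowest of its group. Outside these lists the genes with the most similar pattern, by Pearson's r over the 6 samples, were Hebp1 (0.999), Ndrl (0.999), Mfap3 (0.999), Fscn1 (0.998) and Acly (0.997). Ndrl is listed by RefSeq as a synonym of Ndrg1, and Acly makes cytosolic acetyl-CoA from citrate. All 5 were called higher, with log2 fold changes of 0.43, 1.28, 0.55, 1.06 and 0.53. With samples in 2 groups such an r mostly reflects the step between treatments, and 570 of 8636 genes had an r over 0.95.

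The promoters of all 10 members were read, whether or not their probes were called, and Hk2 among them although its signal was not analysed. Within 250 bases upstream of a RefSeq start, 9 of the 10 members, all but Tpi1, held ACGTG or GCGTG on either strand in at least 1 window, where 41.5% of 27025 genes did. By window it was 15 of 19 against 38.6% of 32851. These letters are the core of the hypoxia response element, and ACGTG is also part of the E-box CACGTG. They contain CG, and the member windows held a median of 13 CG dinucleotides against 6 over all windows. Of the windows of all genes with at least 13, 66.8% held a match, beside 9 of 11 member windows. Windows of 1 gene can overlap, so that sites of Aldoa, Eno1 and Pfkm were counted in more than 1 window. Capitals mark the motif on either strand in the stretches below, chosen from the called genes with a match upstream of their first listed start (GRCm38.p6, RefSeq).
Pfkl chr10:78009877-78009931, minus strand: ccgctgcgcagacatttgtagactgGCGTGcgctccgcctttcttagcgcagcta
Gapdh chr6:125165798-125165852, minus strand: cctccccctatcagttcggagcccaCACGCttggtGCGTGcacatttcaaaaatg
Pgam1 chr19:41911671-41911725, plus strand: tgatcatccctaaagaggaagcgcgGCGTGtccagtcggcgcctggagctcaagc
Ldha chr7:46845731-46845785, plus strand: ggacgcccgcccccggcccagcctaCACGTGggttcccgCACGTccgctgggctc
A match is a description of these letters and says nothing of binding.

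The cell type was checked because one label field names endothelial cells while the others name smooth muscle cells. Of 11 smooth muscle markers 8 were tested, and Myh11 and Cnn1 were not detected on any array. Acta2 (means of 13.18 and 13.58 at the brightest of 4 probes) was the 1 called, higher at 0.40. Its 3 dimmer probes were also called, at 0.73, 0.64 and 0.81. The other tested markers had log2 fold changes of 0.24 (Mylk), 0.20 (Tagln), 0.05 (Lmod1), 0.04 (Tpm2), −0.00 (Cald1), −0.05 (Smtn) and −0.38 (Des). Des had its groups fully apart, was just under the fold cutoff and was called in 6 of 18 alternative settings. Its means were 7.29 in control and a dim 6.91 in moR-21 samples. Tagln was dim in both, at 6.74 and 6.94. The summed intensity of the list, most of it from Acta2, was 10780 to 11142 in control and 13572 to 14449 in moR-21 samples. Of 7 endothelial markers only Vwf was tested, with Pecam1, Cdh5, Kdr and Tek detected on no array, and the sum was 117 to 120 against 118 to 127. Of 6 macrophage markers 3 were tested (sum 1826 to 1886 against 1742 to 1821), with Lyz called higher at 0.58, Cd14 at −0.27 with its groups apart but not called, Csf1r at −0.01, and Ptprc, Emr1 and Cd68 not detected. The 4 tested of 5 fibroblast markers summed to 16388 to 17197 against 13610 to 14607, with Lum called lower at −0.56. The 2 tested of 6 mesothelial markers summed to 771 to 780 against 402 to 416, with Upk3b called lower at −1.24 and Msln, Krt8 and Krt18 not detected. In such bulk RNA, fewer cells of a type and less RNA per cell cannot be told apart, and the part of these shifts in the glycolytic signals was not tested.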

How the data were processed

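Mouse expression BeadChip data were used from 3 control and 3 moR-21 samples on 8 arrays. The authors deposited non-normalized probe intensities and, for each, a deposited detection p-value. The submitters' processing notes name lumi, and their design text names BeadStudio quantile normalization and limma, of which the deposited values hold neither. The series text names the MouseRef-8 v2.0 array and the methods name both that and a MouseWG-6 design. Samples were grouped by the titles in the labels, and 0 columns were left without a sample.

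Intensities of the 8 arrays were quantile normalized together, log2 transformed and averaged over arrays of one sample. The 11651 probes (8727 symbols) that reached a detection p-value under 0.01 on 1 array or more were fitted with limma 3.58.1 (lmFit, eBayes) in R 4.3.3, with Benjamini-Hochberg adjustment. A call needed an adjusted p under 0.002 together with a change of more than 1.3-fold. Between 10285 and 10512 probes per array were detected, and the number of samples limits the precision.

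The members and the lists were chosen with earlier results of these data known, so no result here is independent support. Named genes were all member probes, the called genes of each list with the highest and the lowest uncalled one, and the 5 genes most like the members' mean. Pgk1, Hk1 and the marker genes were named in addition.

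Probe sequences were decoded from identifiers in the supplementary table of the study. The bright Pfkl probe was linked to its sequence because only 1 of the 2 Pfkl probes was called. Promoter and miRNA sequences are RefSeq's for GRCm38.p6. Of the members 9 are current symbols there and Pkm2 is a synonym of Pkm. Protein sequences were not used here. Tables and figures were made with Python 3.11.15, numpy 2.4.6, pandas 2.3.3 and matplotlib 3.10.9.

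Alternatives were normexp background correction (offset 16), median scaling, cyclic loess, probes detected on all arrays or unfiltered, array A or B alone, all arrays with duplicateCorrelation, eBayes with trend and robust, a replicate block, each sample left out, a fold cutoff of 1.5 and, separately, an adjusted p cutoff of 0.05.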

Additional observations from a re-analysis of the deposited data

How the results depend on the processing

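The comparison was fitted under 18 alternatives, 6 of which left out 1 sample each. The count of 7 member probes called higher was 4 at a fold change over 1.5, where Gapdh, Pgam1 and Ldha lost their calls, and 7 whichever sample was left out. Gapdh and Pgam1 also lost theirs with normexp background correction, and Pgam1 with array B alone or with no detection filter; the cause was not tested. The median log2 fold change of the member probes was 0.42 with normexp and 0.41 among probes detected on all 8 arrays, which drops the dim Pfkl probe, and ranged from 0.33 to 0.38 with 1 sample left out.

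The count of list genes called higher was 1, and of those called lower 0, at a fold change over 1.5. With 1 sample left out these counts ranged from 4 to 5 and from 2 to 3. Signs turned for values near 0. The dim Pfkl probe ranged from −0.0196 to 0.0553 and the brightest Pfkm probe from −0.0027 to 0.0474 with 1 sample left out, and the latter was −0.0144 under median scaling and under cyclic loess. Pfkfb4 ranged from −0.0438 to 0.0375 with 1 sample left out, and was 0.0030 under median scaling, 0.0047 with array B alone and 0.0038 with duplicateCorrelation, against −0.0019 as reported. The log2 fold changes of the 36 probes and genes followed kept their direction and call in 601 results, lost a call in 27, gained one in 6 and turned sign in 11. A detection filter, eBayes with trend and robust, the block or a cutoff leaves each fold change as it was. Under these settings the direction was fixed beforehand and only the call could change.

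Samples of the same number deviated together weakly (r of 0.19, 0.04 and 0.06 over probes). Samples of different number had r from −0.13 to 0.07. With 3 samples per treatment these values cannot settle whether the numbers pair the samples. With the replicate number as a block, 7 member probes were called higher, and 0 calls among the members and named genes changed. The median stayed at 0.35, which the block could not change, since each number holds a sample of each treatment. Dim signals limit the dimmer Pfkl probe, the third Pfkm probe and Pgk1, and among other named genes Pgam2, Pcx, Slc2a6, Bsg, Hk1, Tagln, Lmod1, Des, Cald1, Vwf and Csf1r. Probes of 1 gene disagreed for Pfkl, and protein levels and enzyme activities were not analysed here.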
